A study of Homo sapiens with 4 samples.

Results

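The genes described here encode 10 amino acid transporters of the plasma membrane, followed after *SOX2* knockdown in the established human glioblastoma line LN229. They were chosen by name, as *SLC7A1*, *SLC7A2*, *SLC3A2*, *SLC7A5*, *SLC7A11*, *SLC1A4*, *SLC1A5*, *SLC38A1*, *SLC38A2* and *SLC6A9*, and matched to the gene symbols of the array. All 10 were on the array, each with 1 probe, among 33096 gene probes with 20257 distinct symbols. The samples were 2 arrays of LN229 cells given siRNA against *SOX2* and 2 arrays of LN229 cells given a non-targeting control siRNA (mock knockdown), with total RNA labelled with biotin on 1-colour oligonucleotide arrays. All cells were grown in DMEM, and the knockdown was transient. *SOX2* encodes an HMG-box transcription factor of stem and neural progenitor cells. An siRNA, a small RNA duplex, directs the cleavage of transcripts that match it. A single cell line was used, so the arrays describe LN229 and no other glioma.

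Cells take up amino acids through transport systems that are named for their substrates. System y+ carries arginine and lysine, system L carries large neutral amino acids such as leucine, system xc takes up cystine in exchange for glutamate, system ASC exchanges alanine, serine, cysteine and glutamine, and system A carries small neutral amino acids together with sodium. The system L carrier *SLC7A5* and the system xc carrier *SLC7A11* work as heteromers. In these a light chain that carries the substrate is linked by a disulfide bond to the heavy chain encoded by *SLC3A2* (CD98hc, 4F2hc). In glioma, system xc is known as the source of cystine for glutathione and of released glutamate. Transcription of many of these genes is known to be raised by ATF4, the effector of the amino acid response, through a composite C/EBP-ATF element.

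The core of that element, TGATGNAA with any base at N, was searched on both strands of the promoter windows that RefSeq gives on GRCh38.p14, from 250 bases before to 50 bases after the gene's start. It was the only motif searched. Windows were listed for 8 of the 10 genes, and the 2 genes without an entry were *SLC7A11* and *SLC7A2*. The motif was present in 5 of 14 windows, belonging to 5 of the 8 genes. Of all 35116 windows 3.62% held it, and of all 27305 genes 4.46% had at least 1 window with it. The 5 matches are shown because they place the letters of this element relative to the start sites of the genes measured below, with capitals marking the 8 bases of the motif and each stretch written 5′ to 3′ on the strand of its gene.
*SLC7A1*: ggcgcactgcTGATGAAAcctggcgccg
*SLC3A2*: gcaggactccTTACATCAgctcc
*SLC1A4*: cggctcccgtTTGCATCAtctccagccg
*SLC1A5*: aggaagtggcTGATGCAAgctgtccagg
*SLC38A1*: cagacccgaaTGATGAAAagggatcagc
These lie at chr13:29595664-29595691 on the minus strand for *SLC7A1*, chr11:62881726-62881748 on the plus strand for *SLC3A2*, chr2:64989382-64989409 on the plus strand for *SLC1A4*, chr19:46784894-46784921 on the minus strand for *SLC1A5* and chr12:46266503-46266530 on the minus strand for *SLC38A1*. In *SLC3A2* and *SLC1A4* the motif reads on the strand opposite to the gene. Counted with the start base as 0, it spans positions 7 to 14 in *SLC7A1*, 37 to 44 in *SLC3A2*, -7 to 0 in *SLC1A4*, -97 to -90 in *SLC1A5* and -4 to 3 in *SLC38A1*. *SLC3A2* and *SLC1A5* have other listed windows without the motif, as do *SLC1A4* and *SLC38A1*. No match was found in the windows of *SLC7A5*, *SLC38A2* and *SLC6A9*, which says only that these letters are not in those windows. A match of letters is not a measured binding site.

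Signals below are given as multiples of the 75th percentile of their array, called the scaled signal, in the order mock 1, mock 2, knockdown 1, knockdown 2. Probes differ in how well they bind, so a scaled signal is compared between arrays and not between genes. Probes were compared where S/N, the signal-to-noise ratio, exceeded 3 on every array of one group or of the other, which kept 21256 probes and all 10 transporter probes, and 63.5% to 68.9% of probes were over 3 on each array. *SOX2* itself read 0.467, 0.701, 0.209 and 0.149, so both knockdown arrays were below both mock arrays (ratio of means 0.307, log2 change -1.69, SE 0.28, limma adjusted p = 0.117). The treatment field names a colon cancer line, SW620, where the titles of the samples and the study name LN229. Of 12 glioma line markers 11 had S/N over 3 on all 4 arrays by their best probe, while a second *GFAP* probe had it on 0. The summed scaled signal of all probes of the 12 markers was 199 and 250 for mock against 194 and 180 for knockdown. Most of it came from the bright probes of *SPARC*, *VIM* and *S100B*. Of 11 colon markers on the array, 1 had S/N over 3 on all 4 arrays, *VIL1* by its best probe, and 4 on none, *CDH1*, *CDH17*, *KRT19* and *KRT20*. The summed signal of the colon markers was 0.304 to 0.448. As probes differ in brightness, each sum is compared between arrays and not with the other sum. Mock replicate 2 had the highest glioma sum, and log2 changes without that array are given below for *SLC7A1*, *SLC1A5* and *SLC38A2*.

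Transcripts of the heavy chain *SLC3A2* and of its light chains *SLC7A5* and *SLC7A11* were each more abundant on both knockdown arrays than on both mock arrays, as was the cationic carrier *SLC7A1*. By the ratio of the group means, *SLC3A2* (2.11) and *SLC7A1* (2.02) were over 2-fold higher, *SLC7A11* (1.73) and *SLC7A5* (1.64) lay between 1.5-fold and 2-fold, and none of the 10 was over 1.5-fold lower. Thus 2 of 10 were over 2-fold higher, where 1.57% of all probes kept were, and 4 of 10 over 1.5-fold higher, where 5.32% of all probes were. Both counts include *SLC7A1*, which passed the S/N filter only through the knockdown group, where it was higher. In either direction 2.61% of all probes passed 2-fold. The study lists *SLC3A2* and *SLC7A1* from these same arrays, so their place among the 10 is not independent of this count. No transporter reached an adjusted p under 0.05 by limma, nor did any other probe (0% of 21256). At an unadjusted p under 0.05, limma gave 4 of the 10 transporters, all higher, against 7.9% of all probes in that direction. In RNA of a whole culture, more or fewer cells with a transcript and more or less of it per cell cannot be told apart.

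**Figure D1:**
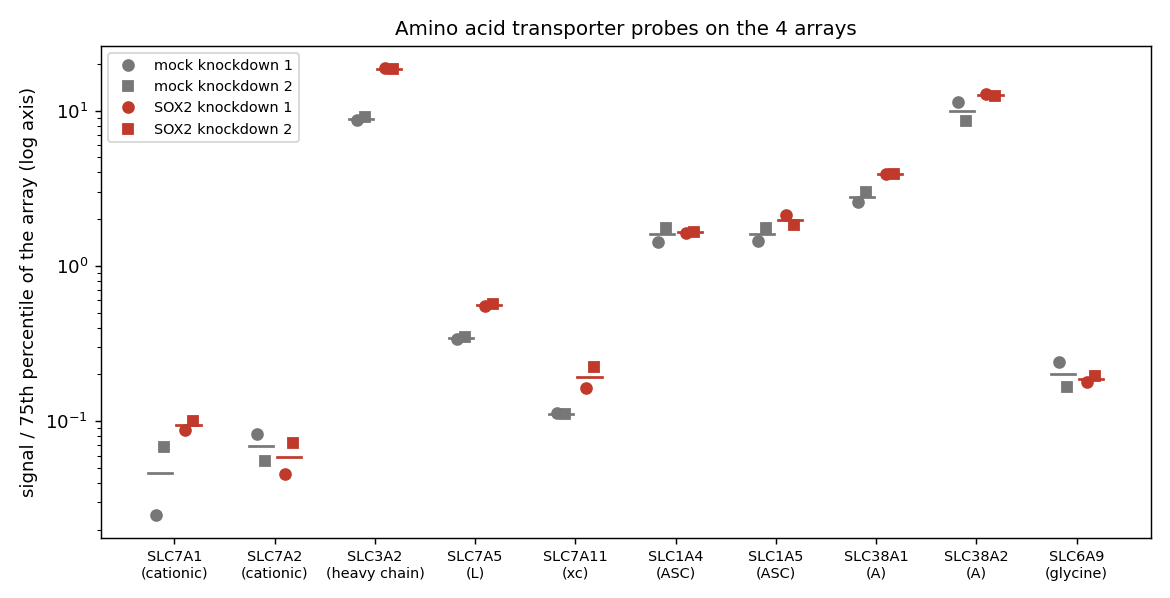
Scaled signal (signal divided by the 75th percentile of its array, log axis) of the 10 transporter probes on each of the 4 arrays, grey for mock knockdown and red for *SOX2* knockdown, circles for replicate 1 and squares for replicate 2, with short lines at the group means. Both red points lie above both grey points for 7 genes, most widely relative to their spread for *SLC3A2* and *SLC7A5*, while *SLC7A2*, *SLC1A4* and *SLC6A9* overlap. Heights of different genes are not comparable.

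*SLC3A2*, the heavy chain that brings the light chains of systems L and xc to the plasma membrane, read 8.67, 9.04, 18.7 and 18.6. The replicates of each group lay close together, at 8.86 ± 0.265 for mock and 18.7 ± 0.103 for knockdown (SD, n = 2), and every pairing of a knockdown with a mock array gave a ratio between 2.055 and 2.161. The log2 change was 1.08 (SE 0.12, 95% interval 0.74 to 1.41), and 1.42% of all probes had a higher one. Its limma adjusted p was 0.0895, the smallest of the 10 and the only one under 0.1, a level reached by 1.13% of all probes. Under 4 of the alternative settings this probe did pass 0.05, and over all of them its adjusted p ran from 0.0120 to 0.497. Its log2 change stayed between 0.99 and 1.12.

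*SLC7A5* (LAT1), the system L light chain that imports leucine and other large neutral amino acids, read 0.337, 0.347, 0.552 and 0.569. The knockdown mean was 0.561 ± 0.0118 against a mock mean of 0.342 ± 0.00760 (SD, n = 2), so the groups were separated by far more than either pair of replicates differed. Its log2 change was 0.71 (SE 0.12, 95% interval 0.38 to 1.05, limma adjusted p = 0.122), and 3.7% of all probes had a higher one. *SLC7A11* (xCT), the light chain of the cystine-glutamate exchanger, read 0.112, 0.112, 0.165 and 0.223. The mock arrays were nearly equal, whereas knockdown replicate 2 was 1.35 times replicate 1. Its log2 change was 0.77 (SE 0.19, 95% interval 0.26 to 1.29, limma adjusted p = 0.175). With normexp background correction the log2 change was smaller for both light chains, 0.46 for *SLC7A5* and 0.36 for *SLC7A11*. The intervals of the heavy chain and of both light chains overlap, and whether their changes differ from one another was not tested.

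Of the system y+ carriers, *SLC7A1* (CAT1), the widely expressed importer of arginine and lysine, read 0.0247, 0.0683, 0.0876 and 0.101. Both knockdown arrays were higher, but the mock replicates themselves differed 2.76-fold, and knockdown replicate 1 was only 1.282 times mock replicate 2. The probe was dim, its S/N being 3.12 and 2.25 in mock against 7.03 and 5.92 after knockdown, so it was kept through the knockdown group. The log2 change of 1.19 carried an SE of 0.51 and a 95% interval from -0.18 to 2.56 (limma adjusted p = 0.349). Its size depended on which mock array was used, as the log2 change was 0.46 without mock replicate 1 and 1.92 without mock replicate 2. A floor of 0.05 gave 0.68, and normexp background correction gave 0.05.

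*SLC7A2* (CAT2), the second y+ carrier, read 0.0825, 0.0552, 0.0460 and 0.0721, and the groups overlapped. It too was dim, its S/N being 3.12 and 1.93 in mock against 4.36 and 3.7 after knockdown. Its log2 change was -0.23 (SE 0.32, 95% interval -1.07 to 0.62, limma adjusted p = 0.824), so a change of either sign lies within its interval.

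**Figure D2:**
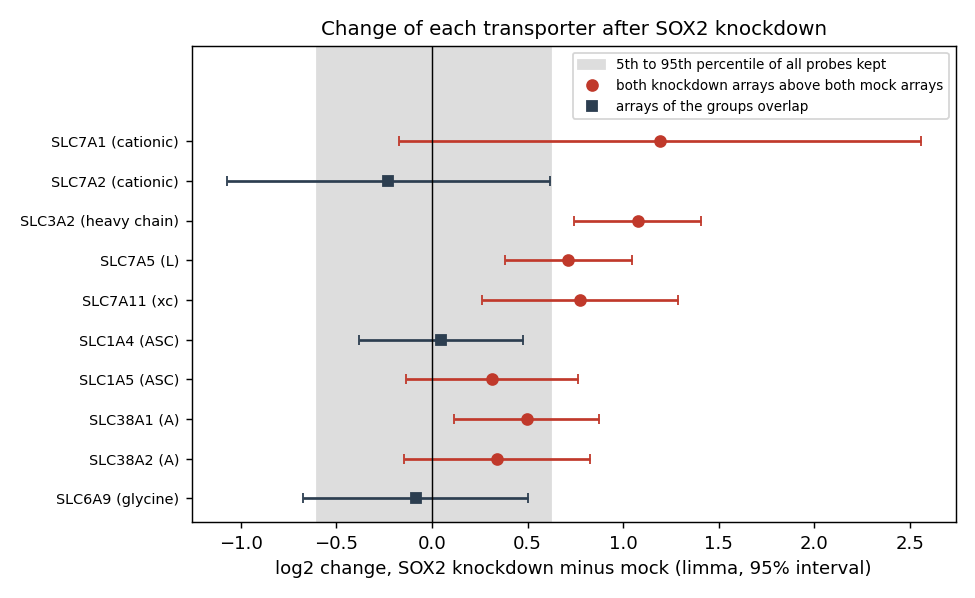
Log2 change of each transporter (*SOX2* knockdown minus mock, horizontal axis) with its 95% interval from limma, against the 5th to 95th percentile of all 21256 probes kept (grey, -0.60 to 0.62). Circles mark genes with both knockdown arrays above both mock arrays, squares those that overlap. *SLC3A2*, *SLC7A1*, *SLC7A5* and *SLC7A11* lie beyond the grey band, the interval of *SLC7A1* crosses 0, and the other 6 lie within the band.

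System ASC held 2 exchangers. *SLC1A5* (ASCT2), a main route of glutamine into many tumour cells, read 1.45, 1.75, 2.12 and 1.84. The knockdown arrays were above the mock arrays, but the lowest pairing differed by a ratio of only 1.053, and the mean was 1.24 times the mock mean (log2 change 0.31, SE 0.17, limma adjusted p = 0.448). *SLC1A4* (ASCT1), an exchanger of alanine, serine, cysteine and threonine, read 1.43, 1.77, 1.64 and 1.64. Both knockdown arrays lay between the mock arrays, and the log2 change was 0.05 (SE 0.16, 95% interval -0.38 to 0.48, limma adjusted p = 0.943). These data therefore bound a change of *SLC1A4* only to that interval.

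The sodium-coupled carriers of system A were both somewhat higher. *SLC38A1* (SNAT1), a carrier of glutamine, alanine and other small neutral amino acids, read 2.58, 2.99, 3.91 and 3.94. The knockdown replicates were nearly equal and every pairing gave a ratio between 1.306 and 1.525 (log2 change 0.50, SE 0.14, 95% interval 0.12 to 0.88, limma adjusted p = 0.211). *SLC38A2* (SNAT2), the carrier known to be induced when amino acids are scarce, read 11.4, 8.64, 12.8 and 12.4. Its mock replicates differed 1.32-fold, more than the ratio of 1.25 between the group means (log2 change 0.34, SE 0.18, limma adjusted p = 0.448). *SLC6A9* (GLYT1), the sodium- and chloride-coupled glycine transporter, read 0.239, 0.166, 0.180 and 0.196, with both knockdown arrays between the mock arrays. Its log2 change was -0.08 (SE 0.22, 95% interval -0.67 to 0.50, limma adjusted p = 0.922).

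Across the 10 transporters, 8 had a higher and 2 a lower mean log2 signal after knockdown, with a median log2 change of 0.42 against 0.00 (-0.00119) over all probes, of which 49.8% were higher. Both knockdown arrays lay above both mock arrays for 7 genes and below them for 0, while 3 genes overlapped. *SLC7A1*, among the 7, and *SLC7A2*, among the 3, were kept only through the knockdown group. Of all probes 21.2% were separated upward and 25.8% downward. The genes were picked with results of these arrays known, so these counts describe them and carry no test. With 2 arrays against 2, an exact permutation test of a single gene cannot give a p under 0.333.

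**Figure D3:**
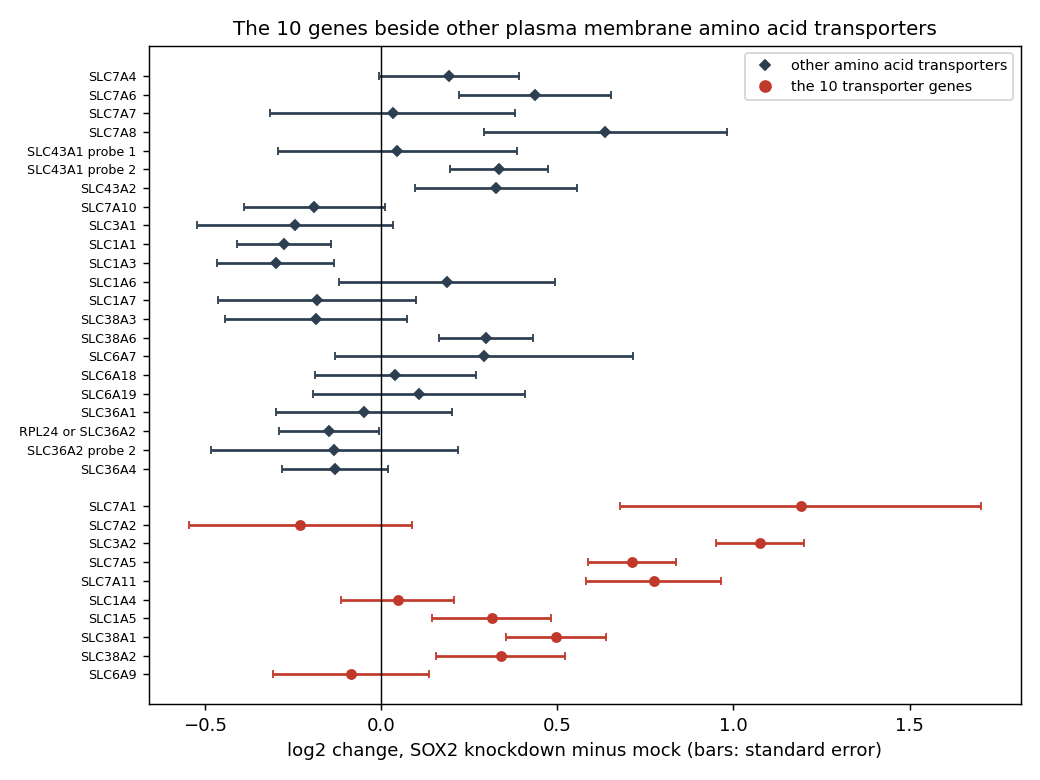
Log2 change (*SOX2* knockdown minus mock, bars are standard errors from limma) of the 22 kept probes of other plasma membrane amino acid transporters (diamonds) and of the 10 transporters described here (circles). The diamonds lie between -0.30 and 0.64, with 12 above and 10 below 0. The circles of *SLC3A2*, *SLC7A1*, *SLC7A5* and *SLC7A11* lie to the right of all of them. A probe annotated to both *RPL24* and *SLC36A2* is marked with both names.

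The other amino acid transporters of the plasma membrane were centred near all probes. Of 36 further genes 33 were on the array with 38 probes, of which 22 were kept, standing for 20 genes. None of the 22 was over 2-fold or over 1.5-fold in either direction, 0 had an unadjusted p under 0.05 by limma, and the median log2 change was 0.04. Of all 21256 probes kept, 2.61% passed 2-fold in either direction, 1130 were over 1.5-fold higher and 1104 over 1.5-fold lower. Over all probes 3626 had an unadjusted p under 0.05 by limma. Both knockdown arrays were above both mock arrays for 4 of the 22 probes and below for 3 of the 22, against 21.2% and 25.8% of all probes. Separation was thus no more frequent here than over all probes, and the classes below hold few probes each. By class, all 4 probes of further system L and aromatic carriers and all 3 of further cationic and y+L carriers had a higher mean log2 signal after knockdown, 3 of them separated from mock. Of the 4 glutamate and aspartate carriers 3 were lower, 2 of them separated. All 4 probes of proton-coupled SLC36 carriers were lower, and the only separated one was the probe annotated to both *RPL24* and *SLC36A2*. The probe annotated to *SLC36A2* alone overlapped with mock. All 3 probes of the SLC6 family were higher and both probes of other heteromeric carriers were lower, each of these overlapping with mock, and of 2 probes of the SLC38 family 1 was higher and separated. The SLC6 probes of *SLC6A7* and *SLC6A19* were kept only through the knockdown group, where they read higher, so their direction is partly tied to that filter. Both probes of other heteromeric carriers were kept through that group too, though they were lower.

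The probes with the largest changes upward in this wider group were those of *SLC7A8* and *SLC7A6*, light chains that pair with *SLC3A2*. Further light chains of that heavy chain, named here after their values were seen, overlapped between the groups, with log2 changes of 0.03 for *SLC7A7* and -0.19 for *SLC7A10*. *SLC7A8* (LAT2), of system L, read 0.117, 0.0640, 0.117 and 0.154, and was separated from mock by a ratio of only 1.001 in its closest pairing (log2 change 0.64, SE 0.34, limma adjusted p = 0.452). Its S/N was 7.81 and 2.45 in mock against 4.48 and 8.78 after knockdown, so it was kept through the knockdown group. *SLC7A6*, of system y+L, which exchanges cationic for neutral amino acids, read 0.307, 0.421, 0.534 and 0.445 (log2 change 0.44, SE 0.22, limma adjusted p = 0.409). The mock replicates differed 1.83-fold for *SLC7A8* and 1.37-fold for *SLC7A6*, no less than the ratios of 1.5 and 1.34 between the group means.

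The largest changes downward were those of 2 glutamate carriers. *SLC1A3* (EAAT1, GLAST), a glutamate transporter of glia, read 0.153, 0.185, 0.147 and 0.128 (log2 change -0.30, SE 0.17, limma adjusted p = 0.466). *SLC1A1* (EAAT3), a carrier of glutamate and cysteine, read 1.56, 1.69, 1.39 and 1.30 (log2 change -0.27, SE 0.13, limma adjusted p = 0.402). In each the knockdown arrays lay below the mock arrays, by less than 1.5-fold.

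**Figure D4:**
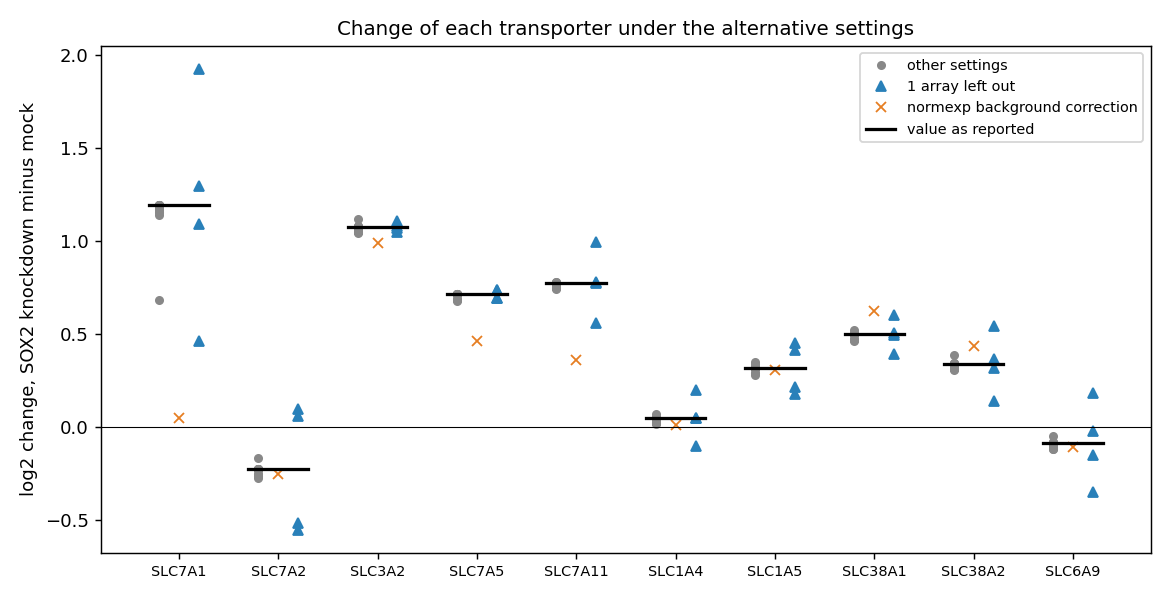
Log2 change of each transporter (vertical axis, *SOX2* knockdown minus mock) as reported (black line), with 1 array left out (triangles), with normexp background correction (crosses) and under the other settings (grey points). *SLC3A2* stays between 0.99 and 1.12, *SLC7A1* spreads from 0.05 to 1.92, and *SLC7A2*, *SLC1A4* and *SLC6A9* fall on both sides of 0 when 1 array is left out.

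Across the alternative settings the log2 change was above 0 wherever it could be computed for the 7 separated genes, though for *SLC7A1* it came down to 0.05 (SE 0.30) with normexp, and that gene had no value with S/N over 3 required on all 4 arrays. The log2 changes were 0.46 to 0.74 for *SLC7A5*, 0.36 to 0.99 for *SLC7A11*, 0.39 to 0.62 for *SLC38A1*, 0.18 to 0.45 for *SLC1A5* and 0.14 to 0.54 for *SLC38A2*. The sizes for *SLC1A5* and *SLC38A2* depended on which mock array was used. Without mock replicate 1 the log2 change of *SLC1A5* was 0.18 and that of *SLC38A2* was 0.54, and without mock replicate 2 they were 0.45 and 0.14.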

How the data were processed

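Groups and replicate numbers came from the source names and titles of the labels. The study's methods describe the 2 arrays per group as biological replicates with separate transfections. The authors deposited, for each array, a normalized signal as linear intensity, and per the file headers an S/N, used as a score, and flags. A deposited series table holds values that the authors processed, a ratio to each probe's median, used as an alternative. The scale of the deposited S/N and the meaning of other flag codes are not stated in the sources used here.

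Intensities were divided by the array's 75th percentile over 32886 probes without a flag of 5000 or more (210 left out), floored at 0.01 and log2-transformed. Probes with S/N over 3 on both arrays of a group were kept and tested with limma 3.58.1 (R 4.3.3, two-sided, no block, Benjamini-Hochberg adjustment over 21256 probes), after a test on simulated data. The 2-fold cutoff used linear means. The arrays' number limits precision. The members and gene lists were chosen with earlier results of these data known. Beyond the 10 genes and *SOX2*, the rule named at most 2 other transporters per direction by largest change, as none passed 2-fold. The files name no genome build, so coordinates are those of the RefSeq promoter table only. Same-numbered arrays tended to deviate from their group means in opposite directions (r = -0.484 over 21256 probes). Mock replicate 1 thus went with knockdown replicate 2, and mock replicate 2 with knockdown replicate 1.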

Additional observations from a re-analysis of the deposited data

How the results depend on the processing

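The number of the 10 transporters over 2-fold was 2. It was 4 at a 1.5-fold cutoff and 0 at a 3-fold cutoff. It was 1 with scaling to the array median, quantile normalization, the deposited signal without further scaling, the assay-normalized signal, the values processed by the authors, a floor of 0.05, and S/N over 3 required on all 4 arrays, and 0 with normexp background correction. With 1 array left out it ran from 1 to 2, being 1 without mock replicate 1 and without knockdown replicate 2. Wherever the count at 2-fold was 1, the probe over 2-fold was that of *SLC3A2*. *SLC7A1* was then under 2-fold or, with S/N over 3 required on all 4 arrays, had no value. The number at a limma adjusted p under 0.05 was 0. It was 2 (*SLC3A2* and *SLC7A1*) with median scaling, without further scaling and with the values processed by the authors, where limma gave every probe the same SE (0.288 with median scaling, whatever a probe's own spread) and called 826, 776 and 758 probes, and it was 1 with a variance trend (*SLC3A2*, adjusted p = 0.0238, 287 probes called). Of all settings only leaving out 1 array changed a direction, with log2 changes from -0.55 to 0.10 for *SLC7A2*, -0.10 to 0.20 for *SLC1A4* and -0.35 to 0.18 for *SLC6A9*. With the replicate number as a block the count at an adjusted p under 0.05 was 0 of 10 and 0 of 21256, and no call changed. A crossed pairing was added after the data were seen, with mock replicate 1 beside knockdown replicate 2 and mock replicate 2 beside knockdown replicate 1. It also called 0 of 10 and 0 of 21256. *SLC7A1* and *SLC7A2* had no value under the S/N filter on all 4 arrays. Dim probes limit what can be said of both.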
